A study of Mus musculus with 12 samples.

Results

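The 5 genes Angptl4, Angptl6, Angptl8, Lpl and Lipc were followed in mouse liver, and they were taken by gene symbol as 5 of the 55421 genes in the count table. All 5 passed the filter on low counts. Livers came from wild-type mice bearing E0771 tumours, a mouse mammary carcinoma line grown in the mammary fat pad, and every group carried the tumour, so no tumour-free liver was compared. Housing was at 6 °C for libraries 1 to 4, at 22 °C for libraries 5 to 8 and at 29 °C for libraries 9 to 12. The mice had 1 week to acclimatise in climate chambers, the livers are from day 21, and their total RNA was sequenced after depletion of ribosomal RNA. The labels name Balb/C and C57Bl6/J hosts without assigning a strain to a library, give no age, and do not say that each library is a separate animal, so p-values measure the spread between libraries.

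Lipoprotein lipase, the product of Lpl, sits on the capillary wall and releases fatty acids from circulating triglyceride, mainly for adipose tissue and muscle, while adult liver makes little of it. Hepatic lipase, the product of Lipc, is made by hepatocytes and trims remnant particles and high-density lipoprotein. Angiopoietin-like proteins are secreted regulators of these lipases. ANGPTL4 inhibits lipoprotein lipase and is known for its rise in fasting, ANGPTL8 is made in liver and fat after feeding and acts in complexes with other family members, and ANGPTL6 is a liver-secreted protein linked to energy expenditure.

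Total counts ranged from 7615585 to 19001126 per library, so 3 counts, the limit that a count of 0 allows, correspond to between 0.158 and 0.394 CPM (counts scaled to a common library total), for counting error alone. Hepatocyte markers summed to between 83036 and 201746 CPM over 9 genes in the 12 libraries, whose label is liver. Libraries 1, 7, 8 and 9 stood apart from the other 8: they held 11.8 to 17.1 CPM of the total count of H2-Ea-ps, a class II histocompatibility gene, and the other 8 held 0 counts of it. This split falls across the temperatures, and since the labels assign no strain to a library, the split and the strain of the host cannot be told apart. The 8 without these counts are libraries 2, 3 and 4 at 6 °C, only libraries 5 and 6 at 22 °C, and libraries 10, 11 and 12 at 29 °C. Levels below are CPM on library sizes scaled by TMM, given as mean ± SD over 4 libraries. edgeR's two-sided quasi-likelihood test gave the folds, standard errors (SE) and p-values, and Benjamini-Hochberg adjustment ran over the 15006 genes tested with 0.05 as the threshold. In bulk liver, fewer cells of a type and less RNA per cell cannot be told apart.

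Angptl8 differed most between housing temperatures among the 5 genes: each 29 °C liver library held more of it than any library at 6 °C or 22 °C. The gene (ENSMUSG00000047822.8) spans bases 21835510 to 21837347 of chromosome 9 (GRCm38), plus strand, with 4 exons and 865 bases of exon, inside the span of Dock6, a guanine nucleotide exchange factor gene on the minus strand. The 250 bases before its start are shown because this gene carries the main difference, beside those before the principal start of Lipc, the gene nearest to it in level per kilobase at 6 °C and 22 °C, which passed in no comparison. Such sequences were found for 3 of the 5 genes, from RefSeq on GRCm38.p6. Motif matches are in capitals, on either strand, to 6 motifs: the TATA box (TATAAA), the E-box (CACGTG), the nuclear receptor half-site (AGGTCA), the CCAAT box (CCAAT), the GC box (GGGCGG) and the HNF1 half-site (GTTAAT).
Angptl8, chr9:21835260-21835509, plus strand: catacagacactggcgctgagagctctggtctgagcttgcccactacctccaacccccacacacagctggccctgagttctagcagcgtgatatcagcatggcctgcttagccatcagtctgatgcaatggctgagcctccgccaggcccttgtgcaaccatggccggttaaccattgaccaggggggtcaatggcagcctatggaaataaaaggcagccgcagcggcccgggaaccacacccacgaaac
Lipc, chr9:70934809-70935058, minus strand: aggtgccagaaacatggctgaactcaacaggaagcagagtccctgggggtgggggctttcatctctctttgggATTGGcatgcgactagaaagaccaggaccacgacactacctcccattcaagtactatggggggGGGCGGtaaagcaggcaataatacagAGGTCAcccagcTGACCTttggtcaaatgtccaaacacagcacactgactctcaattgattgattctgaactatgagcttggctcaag
The Angptl8 window held none of the 6 motifs. The Lipc window shown held the nuclear receptor half-site forward at 88 bases and reversed at 76 bases before the start, with the GC box at 114 bases and the reverse of the CCAAT box at 177 bases, and none of these matches overlap. A second Lipc window, before a start at base 70952221, is not shown. It held the CCAAT box forward at 7 and 14 bases and reversed at 135 bases, and none of the other motifs. Among 32851 windows of the same length the share with each motif was 12.4% for the TATA box, 6.02% for the E-box, 14.0% for the nuclear receptor half-site, 33.8% for the CCAAT box, 32.7% for the GC box and 6.43% for the HNF1 half-site. A match or its lack describes the letters in the window only.

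Angptl8 stood at 12.2, 26.4, 55.5 and 16.9 CPM in libraries 1 to 4 at 6 °C, at 77.2, 45.1, 22.8 and 35.6 CPM in libraries 5 to 8 at 22 °C, and at 104, 397, 114 and 492 CPM in libraries 9 to 12 at 29 °C. Every 29 °C library lay above every library of the other 2 temperatures, the 6 °C and 22 °C groups overlapped, and libraries 10 and 12 stood well above libraries 9 and 11. The averages were 27.8 ± 19.4 CPM at 6 °C, 45.2 ± 23.2 CPM at 22 °C and 277 ± 197 CPM at 29 °C. In raw reads the gene had 170 to 700 counts at 6 °C, 359 to 834 at 22 °C and 1360 to 7286 at 29 °C, so counting error is small beside the spread between libraries.

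**Figure D1:**
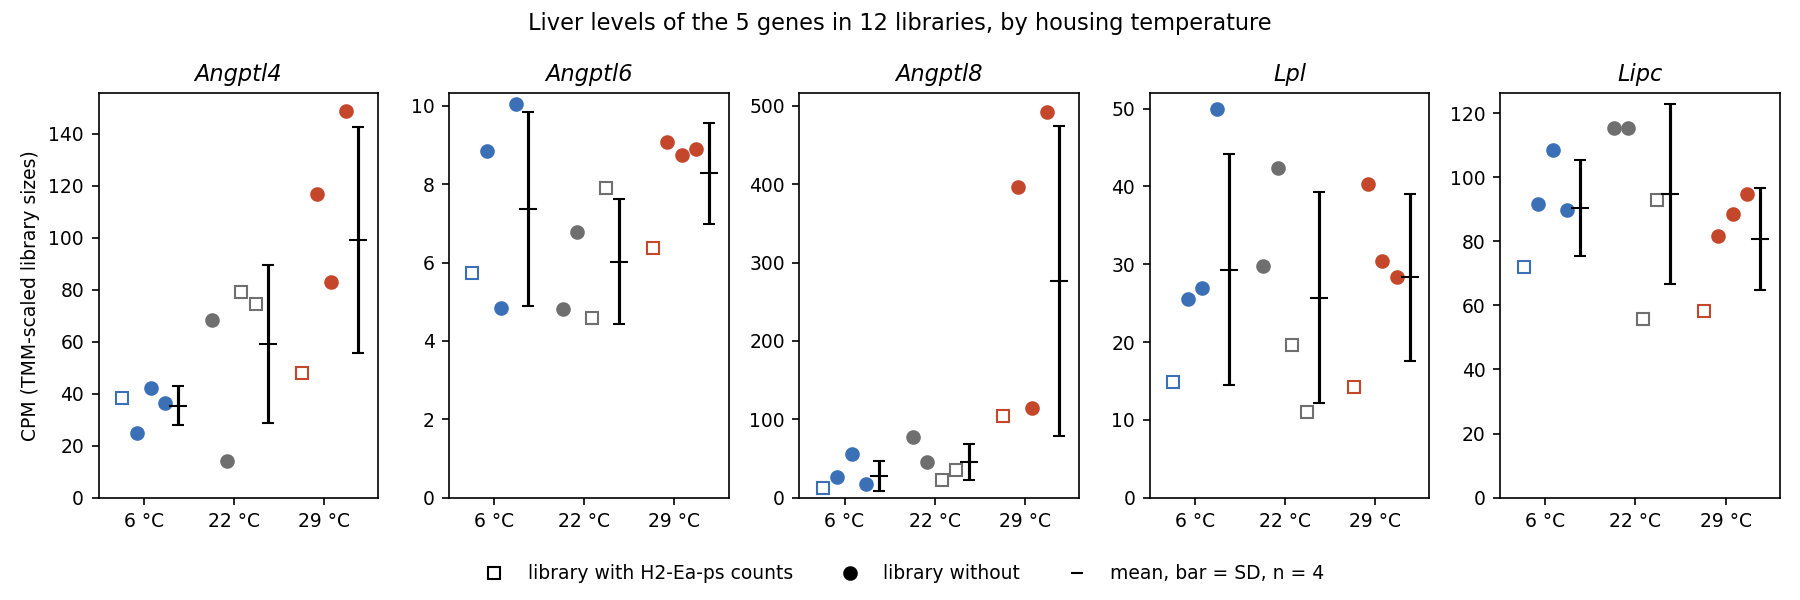
Level of each gene in CPM (linear vertical axis from 0) in the 12 libraries, grouped by housing temperature, with open squares for the 4 libraries that hold H2-Ea-ps counts, filled circles for the others, and a bar for the mean ± SD of 4. Angptl8 lies between 104 and 492 CPM in the 29 °C libraries and at most at 77.2 CPM elsewhere, while the open squares are the 4 lowest libraries for Lpl.

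Between the temperature extremes, Angptl8 averaged 277 ± 197 CPM at 29 °C against 27.8 ± 19.4 CPM at 6 °C, with 4 libraries in each. The rise was 3.32 on the log2 scale (SE 0.68, 95% interval 1.82 to 4.81, edgeR adjusted p = 0.0352). It was the 1 of the 5 genes that passed, against 2.57% of all genes tested that passed in this comparison, 1.17% that rose and 1.4% that fell. Its 29 °C libraries all lay above its 6 °C libraries, as in 6.43% of genes tested (6.87% lay below and 13.3% did either). The exact permutation test (two-sided, log2(CPM + 1)) reached p = 0.0286, the smallest that 70 assignments allow. Any gene whose groups do not overlap reaches it. The log2 fold change stayed between 2.89 and 3.91 over 21 alternatives, but the call did not hold in all of them. The edgeR, DESeq2 or limma adjusted p ranged from 8.65e-05 to 0.105 and passed in 12. It was 0.00524 with a term for the H2-Ea-ps split, and 0.0586 in the 8 libraries without H2-Ea-ps counts, where the log2 fold change was 3.35. The call was lost without library 1 (adjusted p = 0.0595), 2 (0.0687), 4 (0.105), 10 (0.100), 11 (0.0518) or 12 (0.0714).

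Relative to 22 °C, the rise did not reach the threshold: Angptl8 averaged 277 ± 197 CPM at 29 °C against 45.2 ± 23.2 CPM at 22 °C. Its log2 fold change was 2.62 (SE 0.66, 95% interval 1.17 to 4.06) with an edgeR adjusted p of 0.168. edgeR called 0 of 15006 genes here (0% of genes tested), although 2267 (15.1%) had an unadjusted p under 0.05. Other tools made calls, 329 with DESeq2 and 5 with limma voom. DESeq2 called Angptl8 (adjusted p = 0.0101), and the range over the alternatives was 0.0101 to 0.466. With the term for the H2-Ea-ps split the log2 fold change was 2.23. The 29 °C libraries all lay above the 22 °C libraries, as in 3.79% of genes tested (7.74% did not overlap in either direction), and the exact permutation test (two-sided) again gave 0.0286 (n = 4 each). The comparisons of 29 °C with 6 °C and with 22 °C share the 29 °C libraries.

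Cold housing gave no detectable change in Angptl8 relative to 22 °C. It averaged 27.8 ± 19.4 CPM at 6 °C and 45.2 ± 23.2 CPM at 22 °C, with a log2 fold change of -0.70 (SE 0.63, 95% interval -2.09 to 0.69, edgeR adjusted p = 0.689). A 2-fold fall lies inside the interval and a 2-fold rise outside it. The log2 fold change was -1.06 with the term for the H2-Ea-ps split, -1.29 without library 3, -0.44 without library 1 and -0.31 without library 5, and passed in none of the 21 alternatives. In this comparison 5 of 15006 genes passed, or 0.0333%, and none of Angptl4, Angptl6, Angptl8, Lpl and Lipc was among them.

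Reads of Dock6 could be counted for Angptl8 only from its introns, since the annotation (GENCODE vM21) gives the pair 0 shared exon bases, and the use of strand in counting is not given in the sources used here. Dock6 averaged 59.8 ± 12.9 CPM at 29 °C and 53.4 ± 12.7 CPM at 6 °C, with a log2 fold change of 0.17 (SE 0.19, edgeR adjusted p = 0.681). Its libraries ranged from 40.2 to 73.5 CPM. The part of Dock6 reads in the Angptl8 counts was not tested.

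Angptl4, too, was higher in every 29 °C library than in every 6 °C library, as were 6.43% of genes tested (13.3% did not overlap in either direction), but did not pass over all genes. It lies on chromosome 17, from 33773750 to 33781830 on the minus strand (ENSMUSG00000002289.16). Its level was 38.4, 24.7, 42.1 and 36.3 CPM in libraries 1 to 4 at 6 °C, 68.5, 14.3, 79.3 and 74.5 CPM in libraries 5 to 8 at 22 °C, and 47.9, 117, 83.0 and 149 CPM in libraries 9 to 12 at 29 °C. The 22 °C libraries overlapped both other groups, and library 6 was the lowest of the 12.

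Angptl4 averaged 99.1 ± 43.4 CPM at 29 °C against 35.4 ± 7.51 CPM at 6 °C (n = 4 each), a log2 fold change of 1.48 (SE 0.47, 95% interval 0.45 to 2.52). Its edgeR adjusted p was 0.117. The exact permutation test of this single gene gave p = 0.0286 (two-sided), the smallest possible. Any gene whose 2 groups do not overlap reaches that value, so it adds nothing to the separation given above. It passed with DESeq2 (adjusted p = 0.0119), with limma voom (0.0404), when the 22 °C libraries were left out of the fit (0.0407) and without library 6 (0.0277), and the adjusted p ranged from 0.0119 to 0.270 over 21 alternatives. With a term for the H2-Ea-ps split the edgeR adjusted p was 0.0996, and in the 8 libraries without H2-Ea-ps counts the log2 fold change was 1.77 (edgeR adjusted p = 0.142). In the warm comparison with 22 °C, Angptl4 averaged 99.1 ± 43.4 CPM at 29 °C against 59.1 ± 30.2 CPM at 22 °C (log2 fold change 0.74, SE 0.46, edgeR adjusted p = 0.472). That fold was 0.42 without library 6 and 0.49 without library 12. It was 1.49 in the 8 libraries without H2-Ea-ps counts, where 22 °C is left with libraries 5 and 6 only (68.5 and 14.3 CPM). For cold against 22 °C it averaged 35.4 ± 7.51 CPM at 6 °C against 59.1 ± 30.2 CPM at 22 °C (log2 fold change -0.74, SE 0.47, edgeR adjusted p = 0.544). That fold was -0.27 in the 8 libraries without H2-Ea-ps counts, again with libraries 5 and 6 only at 22 °C. Neither comparison with 22 °C passed in any of the 21 alternatives.

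**Figure D2:**
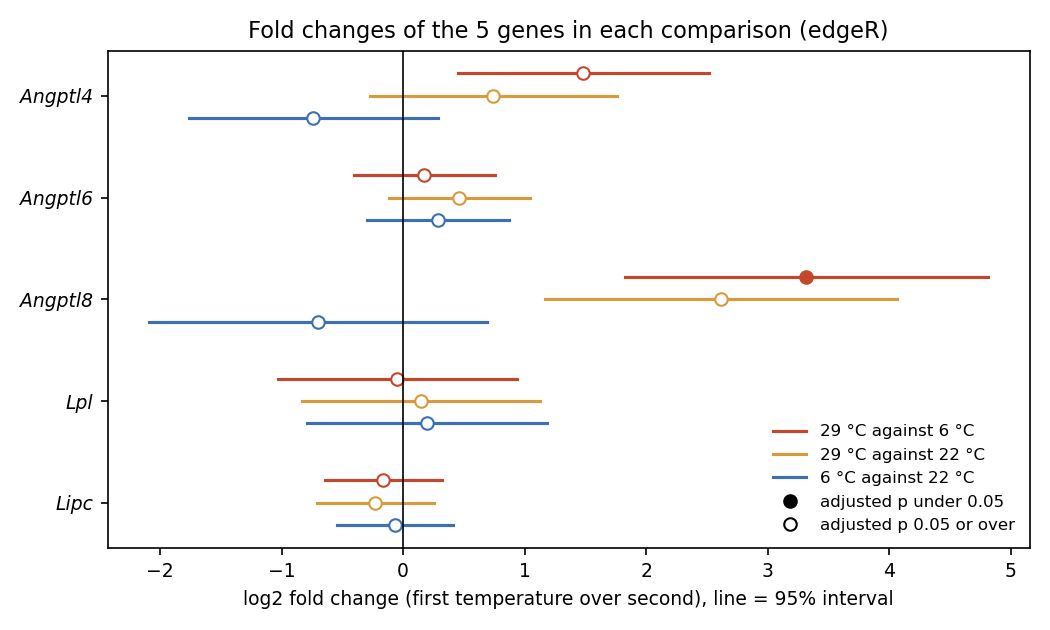
Log2 fold change of each gene (horizontal axis, first temperature over second) with its 95% interval from edgeR, for the 3 comparisons, filled where the adjusted p is under 0.05. The 1 filled point is Angptl8 at 29 °C against 6 °C, at 3.32, and the intervals of Lpl and Lipc span 0 in every comparison.

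Library by library, the pair did not keep 1 order at all temperatures. At 29 °C both genes ranked libraries 9, 11, 10 and 12 from lowest to highest. At 22 °C the orders differed: libraries 5 and 6, with 77.2 and 45.1 CPM, were the higher for Angptl8, and libraries 7 and 8, with 79.3 and 74.5 CPM, the higher for Angptl4. Libraries 7 and 8 hold H2-Ea-ps counts and libraries 5 and 6 do not. Libraries 5 and 6 also held the least Gm26917, an abundant transcript in these libraries, at 0.667% and 0.605% of counts against 5.02% and 8.70% in libraries 7 and 8. The part of either difference in these levels was not tested.

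**Figure D3:**
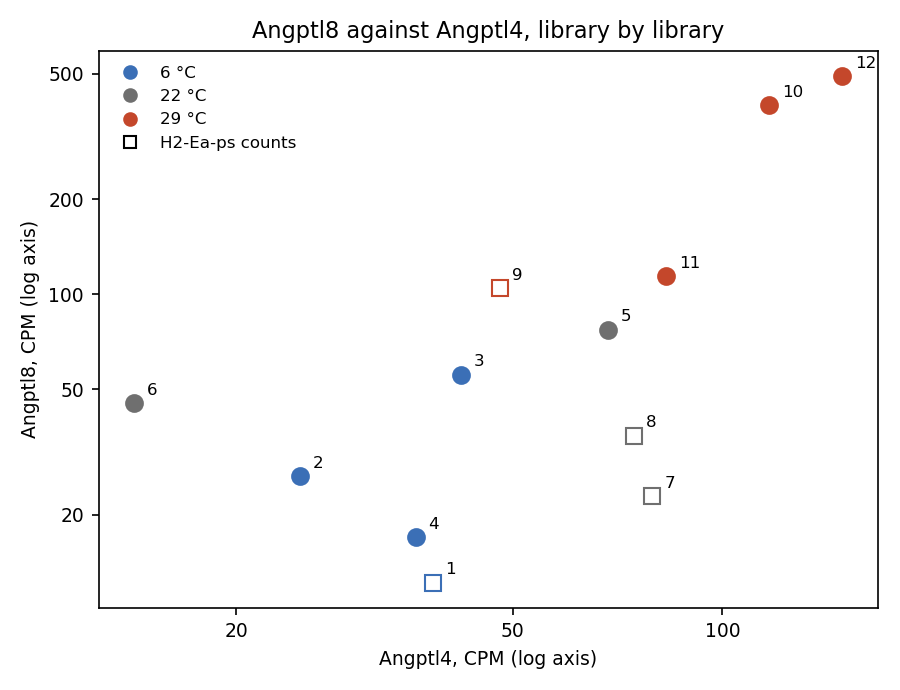
Angptl8 against Angptl4 in CPM, both axes logarithmic, 1 point per library with its number, coloured by housing temperature, with open squares for the libraries that hold H2-Ea-ps counts. Libraries 10 and 12 are highest for both genes, while library 6 has the lowest Angptl4 (14.3 CPM) at a mid-range Angptl8 (45.1 CPM).

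Angptl6 was the least counted of the 5 genes and did not change detectably. It lies on chromosome 9 from 20873808 to 20879727 on the minus strand (ENSMUSG00000038742.7) and had 52 to 174 counts per library. It stood at 5.73, 8.86, 4.84 and 10.03 CPM in libraries 1 to 4 at 6 °C, at 4.81, 6.78, 4.58 and 7.90 CPM in libraries 5 to 8 at 22 °C, and at 6.36, 9.08, 8.75 and 8.91 CPM in libraries 9 to 12 at 29 °C. The 3 groups overlapped, and library 9 was the lowest at 29 °C.

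Angptl6 averaged 8.28 ± 1.28 CPM at 29 °C against 7.36 ± 2.48 CPM at 6 °C (log2 fold change 0.17, SE 0.27, edgeR adjusted p = 0.775). Against 22 °C (6.02 ± 1.6 CPM) its log2 fold change was 0.46 at 29 °C (SE 0.27, edgeR adjusted p = 0.435) and 0.29 at 6 °C (SE 0.27, edgeR adjusted p = 0.707). Shfl, an interferon-induced inhibitor of ribosomal frameshifting, lies on the opposite strand and shares 265 exon bases with Angptl6, so some reads of the pair may be uncertain. Shfl averaged 86.2 ± 14.1 CPM at 29 °C against 51.7 ± 11.4 CPM at 6 °C (log2 fold change 0.74, edgeR adjusted p = 0.0483, between 0.00648 and 0.123 over 21 alternatives). Its call was lost when any library other than 7 was left out, and in the fit of the 8 libraries compared.

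Neither lipase gene passed the test in any comparison. Lpl lies on chromosome 8 from 68880491 to 68907448 on the plus strand (ENSMUSG00000015568.16). It stood at 14.8, 25.5, 26.9 and 50.0 CPM in libraries 1 to 4 at 6 °C, at 29.8, 42.4, 19.6 and 11.03 CPM in libraries 5 to 8 at 22 °C, and at 14.3, 40.3, 30.4 and 28.3 CPM in libraries 9 to 12 at 29 °C. The 3 groups overlapped almost completely.

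Lpl averaged 28.3 ± 10.7 CPM at 29 °C and 29.3 ± 14.8 CPM at 6 °C, with a log2 fold change of -0.05 (SE 0.45, 95% interval -1.03 to 0.93, edgeR adjusted p = 0.970). Against 22 °C (25.7 ± 13.5 CPM) the log2 fold change was 0.15 at 29 °C (edgeR adjusted p = 0.906) and 0.19 at 6 °C (edgeR adjusted p = 0.904), each with an SE of 0.45. These intervals leave room for changes of up to about 2-fold. Its spread lay along the other split of the libraries: the 4 with H2-Ea-ps counts held 11.03 to 19.6 CPM, against 25.5 to 50.0 CPM in the other 8. Of all genes tested, 4.92% were likewise lower in all 4 of these libraries than in each of the other 8 (a description, with no test).

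Lipc lies on chromosome 9 from 70798128 to 70952226 on the minus strand (ENSMUSG00000032207.10). It stood at 71.8, 91.7, 108 and 89.6 CPM in libraries 1 to 4 at 6 °C, at 115, 115, 55.8 and 92.7 CPM in libraries 5 to 8 at 22 °C, and at 58.3, 81.6, 88.4 and 94.8 CPM in libraries 9 to 12 at 29 °C. At each temperature its lowest library was one of those with H2-Ea-ps counts, which held 55.8 to 92.7 CPM against 81.6 to 115 CPM in the other 8.

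Lipc averaged 80.8 ± 15.9 CPM at 29 °C against 90.4 ± 15.0 CPM at 6 °C (log2 fold change -0.16, SE 0.22, 95% interval -0.64 to 0.32, edgeR adjusted p = 0.742). Against 22 °C (94.7 ± 28.0 CPM) the log2 fold change was -0.23 at 29 °C (edgeR adjusted p = 0.662) and -0.07 at 6 °C (95% interval -0.55 to 0.41, edgeR adjusted p = 0.935). The intervals of Lipc are the narrowest of the 5 genes, and none of them reaches a halving or a doubling.

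Per kilobase of annotated exon, the order of the genes differed between temperatures. At 6 °C Lipc led with 42.0 ± 6.96 CPM per kb, followed by Angptl8 with 32.1 ± 22.5, Angptl4 with 9.99 ± 2.12, Angptl6 with 4.66 ± 1.57 and Lpl with 2.80 ± 1.41 CPM per kb. At 22 °C Angptl8 had 52.2 ± 26.8, Lipc 44.1 ± 13.0, Angptl4 16.7 ± 8.54, Angptl6 3.80 ± 1.01 and Lpl 2.45 ± 1.29 CPM per kb. At 29 °C Angptl8 reached 320 ± 228 CPM per kb, with Lipc at 37.6 ± 7.40, Angptl4 at 28.0 ± 12.3, Angptl6 at 5.23 ± 0.81 and Lpl at 2.70 ± 1.02. Angptl8 and Lipc overlapped at 6 °C and 22 °C, and at 29 °C the lowest Angptl8 library (121 CPM per kb) lay above the highest Lipc library (44.1 CPM per kb). Angptl4 and Lipc overlapped at 29 °C. Exon lengths are unions over all annotated transcripts, 10478 bases for Lpl, 1582 for Angptl6 and 865 for Angptl8. In CPM, Lpl averaged above Angptl6 at each temperature, so the order of these genes per kilobase rests on the lengths used.

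Of 15 genes that anchor, mature, cut, activate or inhibit lipoprotein lipase, edgeR called 0 at 29 °C against 6 °C. In that comparison 2 of the 15 had an unadjusted p under 0.05, as did 19.4% of all genes tested. DESeq2 and limma voom called 2 each, beside 1205 and 1097 of all 15006 genes. The median log2 fold change of the 15 was -0.01, beside -0.00 over all genes tested. Apoc1, an apolipoprotein that restrains lipoprotein lipase, averaged 723 ± 113 CPM at 29 °C against 1111 ± 191 CPM at 6 °C (log2 fold change -0.62, SE 0.18, edgeR adjusted p = 0.0793). Creb3l3, a liver transcription factor of triglyceride metabolism, averaged 303 ± 55.6 CPM at 29 °C against 189 ± 12.9 CPM at 6 °C (log2 fold change 0.68, SE 0.21, edgeR adjusted p = 0.101). The 2 temperature groups did not overlap for either gene, as for 13.3% of all genes tested. Gpihbp1, which holds lipoprotein lipase on the capillary wall, averaged 8.85 ± 3.86 CPM at 29 °C and 7.36 ± 2.76 CPM at 6 °C, and Lmf1, needed to fold the enzyme, 39.1 ± 9.16 CPM at 29 °C and 39.4 ± 9.27 CPM at 6 °C. Apoc2, the obligate activator, averaged 1.13 ± 0.53 CPM at 29 °C and 1.16 ± 0.41 CPM at 6 °C, but 79.5% of its exon bases also belong to a second annotated gene on the same strand, so its counts are uncertain. The 15 genes gave 0 calls by edgeR, DESeq2 and limma voom at 29 °C against 22 °C and at 6 °C against 22 °C. An unadjusted p under 0.05 was found for 4 and 2 of them, beside 15.1% and 12% of all genes tested.

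Other members of the angiopoietin-like family gave 0 calls among 3 tested in each comparison by edgeR, DESeq2 and limma voom. At 29 °C against 6 °C, 1 had an unadjusted p under 0.05, beside 19.4% of all genes tested. That gene, Angptl2, a vascular and inflammatory member of the family, averaged 14.1 ± 3.58 CPM at 29 °C against 19.8 ± 4.97 CPM at 6 °C (log2 fold change -0.49, SE 0.22, edgeR adjusted p = 0.244).

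Among 14 other lipases tested, 1 fell at 29 °C relative to 6 °C and 0 rose, beside 1.4% and 1.17% of all genes tested. An unadjusted p under 0.05 was found for 4 of the 14, against 19.4% of all genes. DESeq2 and limma voom called 1 each, beside 1205 and 1097 of all 15006 genes. The gene that fell, Abhd6, a monoacylglycerol lipase, averaged 10.7 ± 2.56 CPM at 29 °C against 20.7 ± 2.23 CPM at 6 °C (log2 fold change -0.95, SE 0.23, edgeR adjusted p = 0.0493). Its call was lost without library 1, 2, 3, 4, 5, 9, 10, 11 or 12 (adjusted p up to 0.136) and with DESeq2 size factors (0.0501). The median of the list was -0.18. Of 13 genes for uptake of lipoproteins and fatty acids, edgeR called 0 (2.57% of all genes), with 2 at an unadjusted p under 0.05 (19.4% of all genes), 1 by DESeq2 and 0 by limma voom, and a median of -0.08. The sorting receptor Sorl1 had the lowest p and averaged 118 ± 12.0 CPM at 29 °C against 61.5 ± 32.7 CPM at 6 °C (edgeR adjusted p = 0.135).

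Angptl4 is a known target of PPARA, the fasting-responsive nuclear receptor. Of 18 genes tested for that receptor and its other targets, 4 rose at 29 °C against 6 °C and 0 fell, beside 1.17% and 1.4% of all genes tested, with a median log2 fold change of 0.76. An unadjusted p under 0.05 was found for 9 of the 18 (19.4% of all genes). DESeq2 called 6 and limma voom 5, beside 1205 and 1097 of all 15006 genes. The thioesterase Acot2 averaged 15.05 ± 5.74 CPM at 29 °C against 2.80 ± 0.89 CPM at 6 °C (log2 fold change 2.40, edgeR adjusted p = 0.00888). The lipid droplet protein Plin5 averaged 71.1 ± 11.4 CPM at 29 °C against 23.9 ± 6.95 CPM at 6 °C (log2 fold change 1.58, edgeR adjusted p = 0.0338). Plin2, another lipid droplet protein, averaged 652 ± 236 CPM at 29 °C and 192 ± 48.5 CPM at 6 °C, and Fgf21, a liver hormone of fasting, 27.2 ± 12.4 CPM at 29 °C and 0.556 ± 0.693 CPM at 6 °C. Acot2 and Plin2 passed under all 21 alternatives, Fgf21 lost its call without library 3, 4, 10 or 11, and Plin5 without library 1, 2, 3, 4, 10, 11 or 12 or without a low-count filter, with an adjusted p of up to 0.0979. In the comparisons of 29 °C and of 6 °C with 22 °C, edgeR called 0 of the 18. An unadjusted p under 0.05 was found for 6 and 2, beside 15.1% and 12% of all genes. DESeq2 called 4 and 0, beside 329 and 178 of all 15006 genes, and limma voom called 0, beside 5 and 4.

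Angptl8 is known as a feeding- and insulin-responsive gene, and lipogenic genes and their regulators were set beside it at 29 °C against 6 °C. Not all of them, Insig2 among them, need respond to insulin in the same direction. Of 15 tested, edgeR called 0 (2.57% of all genes), with 2 at an unadjusted p under 0.05 (19.4% of all genes). DESeq2 called 1 and limma voom 0, beside 1205 and 1097 of all 15006 genes, so that these counts are near the background. A positive log2 fold change was found for 4 of the 15, beside 7423 of all 15006 genes. The median of the 15 was -0.34. Dgat2, which makes triglyceride, averaged 342 ± 52.6 CPM at 29 °C and 456 ± 39.0 CPM at 6 °C (edgeR adjusted p = 0.149), and the lipogenic enzyme Acaca 152 ± 41.3 CPM at 29 °C and 109 ± 17.1 CPM at 6 °C (edgeR adjusted p = 0.243).

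Glucocorticoids and low oxygen are other known inducers of Angptl4. Of 12 genes tested for the glucocorticoid receptor and its targets, 0 rose and 1 fell at 29 °C against 6 °C, beside 1.17% and 1.4% of all genes tested. An unadjusted p under 0.05 was found for 4 of the 12 (19.4% of all genes). DESeq2 and limma voom called 3 each, beside 1205 and 1097 of all 15006 genes. The gene that fell was the tyrosine aminotransferase gene Tat (777 ± 270 CPM at 29 °C, against 2400 ± 782 CPM at 6 °C, log2 fold change -1.63, edgeR adjusted p = 0.0232, with the call lost without library 3, 4, 10 or 12 and an adjusted p of up to 0.0848). The phosphatase gene Dusp1 was named after its values were seen. Its 29 °C libraries all lay above its 6 °C libraries, as in 6.43% of genes tested. It averaged 304 ± 79.4 CPM at 29 °C against 99.4 ± 60.9 CPM at 6 °C (log2 fold change 1.61, edgeR adjusted p = 0.0998). Going the other way, all 29 °C libraries lay below all 6 °C libraries for Tat, Pck1 and Nr3c1, as in 6.87% of genes tested. The log2 fold change was -0.67 for Pck1 (edgeR adjusted p = 0.144) and -0.33 for Nr3c1 (edgeR adjusted p = 0.294). Of 10 hypoxia-responsive genes tested, edgeR called 0 (2.57% of all genes), with 4 at an unadjusted p under 0.05 (19.4% of all genes) and 1 each by DESeq2 and limma voom. Their median log2 fold change was 0.37. Ndrg1 averaged 50.0 ± 18.3 CPM at 29 °C and 25.6 ± 11.2 CPM at 6 °C (edgeR adjusted p = 0.120). Relative to 22 °C, edgeR called 0 genes of the other lipase, uptake, lipogenic, glucocorticoid and hypoxia lists at 29 °C or at 6 °C. The lists had 1 to 2 genes at 29 °C and 0 to 4 at 6 °C with an unadjusted p under 0.05, beside 15.1% and 12% of all genes. For the lipogenic list the median log2 fold change was 0.28 at 29 °C and 0.49 at 6 °C against 22 °C. DESeq2 called 0 and 2 of its 15 genes, beside 329 and 178 of all 15006 genes.

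The genes whose levels ran closest to each member over the 12 libraries are given as a description, since the libraries share temperature groups and the H2-Ea-ps split. Among 11560 genes searched by Pearson correlation of log2 CPM, the 3 closest to Angptl8 were G0s2 (r = 0.97, Spearman 0.98), Gapdh (r = 0.96, Spearman 0.95) and Thbs1 (r = 0.94, Spearman 0.95). G0s2, whose product inhibits the triglyceride lipase ATGL, averaged 16.2 CPM at 6 °C, 20.7 CPM at 22 °C and 112 CPM at 29 °C. The glycolytic gene Gapdh, whose reads can be shared with its many processed pseudogenes, averaged 9.54, 12.3 and 67.9 CPM at 6, 22 and 29 °C. Closest to Angptl4 were Shq1 (r = 0.93), the carnitine carrier gene Slc25a20 (r = 0.93, Spearman 0.95) and Creb3l3 (r = 0.91, Spearman 0.91). For Angptl6 they were Eva1b, Uba7 and Dll4 (r between 0.92 and 0.93), and for Lipc Ces1e, Prkd3 and Fras1 (r between 0.93 and 0.94). For Lpl they were Ptpn14, Actn4 and Cyfip1 (r between 0.93 and 0.95). In the 8 libraries without H2-Ea-ps counts r lay between 0.95 and 0.98 for the 3 genes of Angptl8, 0.93 and 0.98 for those of Angptl4, 0.91 and 0.96 for those of Angptl6, 0.62 and 0.91 for those of Lipc, with Fras1 the lowest, and 0.62 and 0.76 for those of Lpl.

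Macrophages and endothelial or fat cells, which can make Lpl or Angptl4, were followed by their markers. Kupffer cell and macrophage markers summed to 1091 to 1888 CPM over 15 genes at 29 °C and to 809 to 1355 CPM at 6 °C, with 0 markers at 0 in either group. All 15 had a positive log2 fold change at 29 °C against 6 °C (median 0.61), beside 7423 of all 15006 genes tested (median -0.00). Of the 15, edgeR called 0 (2.57% of all genes) and 3 had an unadjusted p under 0.05 (19.4% of all genes). DESeq2 called 1 and limma voom 2, beside 1205 and 1097 of all 15006 genes. Endothelial markers summed to 673 to 876 CPM over 9 genes at 29 °C and to 539 to 679 CPM at 6 °C. The part of either cell type in the levels of the 5 genes was not tested. Adipocyte markers summed to at most 30.2 CPM over 9 genes in any library, with Ucp1 at 0 in all 12, and striated muscle markers to at most 7.78 CPM over 8 genes. Intestinal markers summed over 12 genes to 29.0 CPM in library 9, 29.0 CPM in library 10, 575 CPM in library 11 and 32.9 CPM in library 12, all at 29 °C, and to 12.6 to 23.3 CPM at 6 °C and 16.2 to 40.1 CPM at 22 °C. Akp3, Reg3b, Reg3g, Sis, Cdx1, Cdx2 and Krt20 of that list were at 0 in all 6 °C and 22 °C libraries. Of its 2 genes tested at 29 °C against 6 °C, Lgals4 rose, beside 1.17% of all genes tested (23.1 ± 11.7 CPM at 29 °C, against 5.99 ± 2.79 CPM at 6 °C, log2 fold change 1.93, edgeR adjusted p = 0.0455). Its 29 °C libraries all lay above its 6 °C libraries, as in 6.43% of genes tested. Without library 11 the log2 fold change at 29 °C against 6 °C was 3.58 for Angptl8 and 1.57 for Angptl4, and the part of intestinal RNA in the other libraries was not tested. Pancreatic acinar markers summed to 2.36 to 14.2 CPM over 7 genes at 29 °C and to 3.22 to 41.3 CPM at 6 °C. The 41.3 CPM was library 3 and the 14.2 CPM library 11, and all remaining libraries held 2.36 to 4.96 CPM. Without library 3 the log2 fold change at 29 °C against 6 °C was 3.91 for Angptl8 and 1.58 for Angptl4. The part of pancreatic RNA in these levels was not tested.

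**Figure D4:**
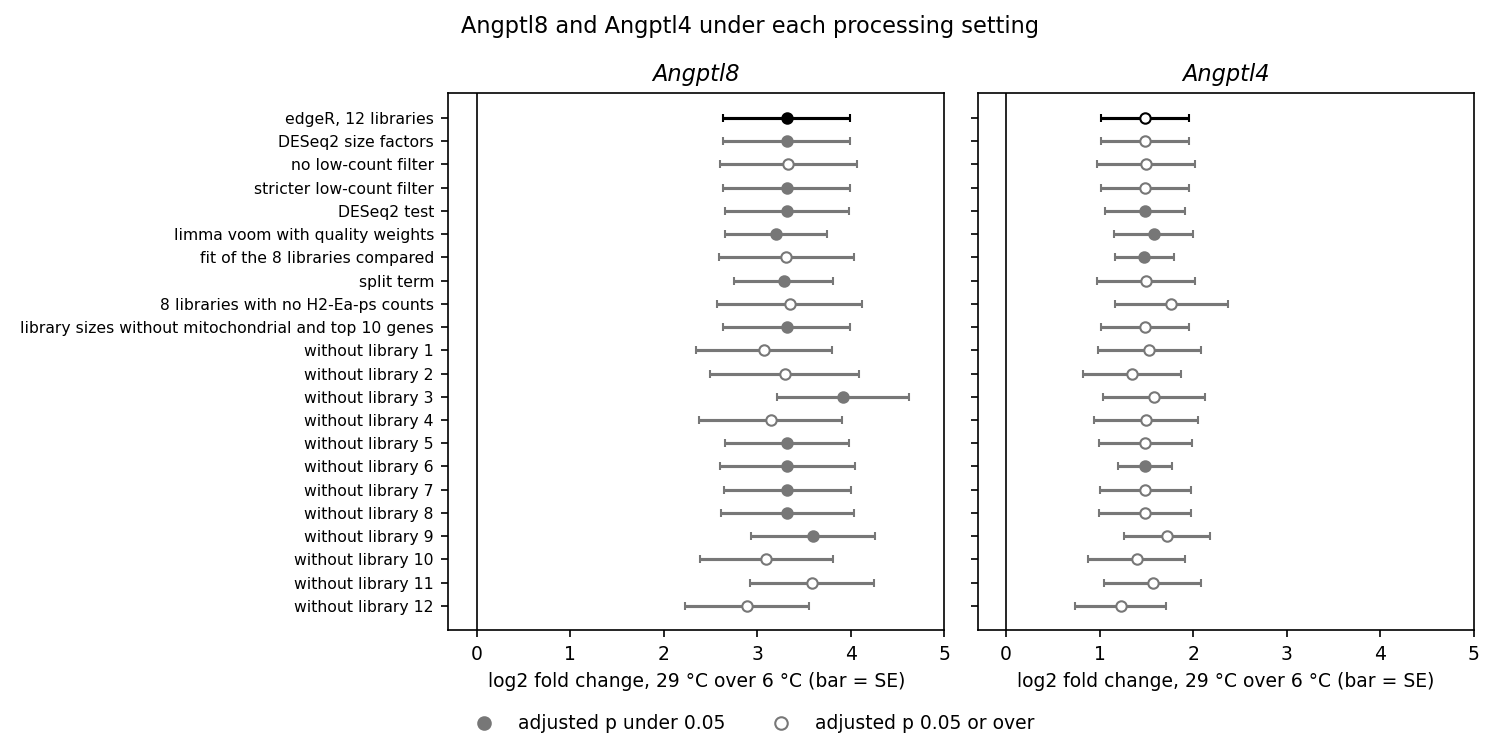
Log2 fold change at 29 °C over 6 °C (horizontal axis, bar = SE) of Angptl8 and Angptl4 under the edgeR fit of 12 libraries and 21 alternatives (rows), filled where the adjusted p is under 0.05. Angptl8 stays between 2.89 and 3.91 with 12 of 21 alternatives filled, and Angptl4 between 1.23 and 1.77 with 4 filled.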

How the data were processed

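Liver RNA was profiled in 12 libraries, and the authors deposited 1 table of raw, unnormalized counts with 1 row per gene. Per the submitters' processing notes, the names bcl2fastq, STAR 2.6.1a, DESeq2 1.44.0 and GRCm38 apply, in a sequence not stated. Which program counted the reads, and whether it used strand, is not given in the sources used here. Each column was matched to its sample through the library name in the description. edgeR 4.0.16 in R 4.3.3 tested the counts (TMM, filterByExpr by group, robust quasi-likelihood fit, 12 libraries, 3 group means, 9 residual degrees of freedom, no covariate). Of 55421 genes 15006 were tested, and the common biological coefficient of variation was 0.321. The fit was tested on simulated data with known fold changes. Permutation tests were exact, on log2(CPM + 1). No replicate pair agreed within sampling noise (18 pairs, chi-square over degrees of freedom 12.7 to 136). Where a symbol had several rows (117 rows beyond the first of their symbol), the row of highest mean was taken. Alternatives were DESeq2 size factors, DESeq2 1.42.0, limma 3.58.1 voom with quality weights, other filters, library sets, library sizes and pseudocounts, a term for the H2-Ea-ps split, and leaving out each library. The 5 genes and all gene lists were chosen with earlier results of these data known. From a list the text names at most 4 called genes with the lowest p, or up to 2 where none was called, besides partners whose role a sentence gives, Dock6, Shfl (chosen after its overlap was seen), Dusp1, Pck1, Nr3c1 and Lgals4 (chosen after their values were seen) and the 3 genes closest to each of the 5. Gene positions came from GENCODE vM21 by identifier.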

Additional observations from a re-analysis of the deposited data

Results flagged for a closer look

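In 15 groups of 4 libraries (5 genes at 3 temperatures), 2 held a library far from the other 3 by Dixon's 95% criterion, and chance alone flags about 1 in 20 groups. Angptl4 at 22 °C was 14.3 CPM in library 6, with the other 3 libraries between 68.5 and 79.3 CPM (gap over range 0.834). Angptl6 at 29 °C was 6.36 CPM in library 9, with the other 3 between 8.75 and 9.08 CPM (gap over range 0.877), and library 9 is among the 4 that hold H2-Ea-ps counts.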

How the results depend on the processing

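No paired analysis was possible because the libraries are numbered 1 to 12 with no number shared between temperatures. At 29 °C against 6 °C Angptl8 had a log2 fold change of 3.33 without a low-count filter (adjusted p = 0.0727), 3.31 when the 22 °C libraries stayed out of the fit (0.0533) and 3.35 in the 8 libraries lacking H2-Ea-ps (0.0586), so its call was lost there at a similar size, and leaving out 1 library gave 2.89 to 3.91. Angptl4 passed with DESeq2 (1.49), limma voom (1.58) and without the 22 °C libraries in the fit (1.48), and leaving out 1 library gave 1.23 to 1.72. Angptl8 at 29 °C against 22 °C passed with DESeq2 (2.62). Lpl, near 0 throughout, changed sign at 29 °C against 6 °C with limma voom (0.11) and, in the permutation test's difference, with plain library totals (0.037), and ranged from -0.26 to 0.34 on leaving out 1 library. At 29 °C against 22 °C it was -0.12 with the split term and -0.12 in the 8 libraries lacking H2-Ea-ps (-0.094 to 0.50 on leaving out 1 library), and at 6 °C against 22 °C -0.066 and -0.079 (-0.19 to 0.54). Of those 8 libraries, only libraries 5 and 6 are at 22 °C. Lipc at 6 °C against 22 °C ranged from -0.25 to 0.045 on leaving out 1 library. The cause of these shifts was not tested. Genes called over all genes numbered 385, 0 and 5 at 29 °C against 6 °C, 29 °C against 22 °C and 6 °C against 22 °C. They numbered 1205, 329 and 178 with DESeq2 and 1892, 540 and 58 with the split term. In the 8 libraries lacking H2-Ea-ps, with libraries 5 and 6 only at 22 °C, they numbered 1504, 2594 and 1015. With limma voom they were 1097 and 5 in the first 2 comparisons, without a low-count filter 15 in the second, and in the fit of the 6 °C and 22 °C libraries alone 3 in the third. Leaving out 1 library gave 41 to 439, 0 to 78 and 3 to 7. With 4 libraries per temperature, a 2-fold change of Lpl lies near the edge of its 95% interval, which is not adjusted over all genes. The adjusted threshold is stricter: at 29 °C against 6 °C, Angptl4 had a log2 fold change of 1.48 (SE 0.47) and an edgeR adjusted p of 0.117. A 2-fold change of Lpl could thus go uncalled.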
